A study of Mus musculus with 9 samples.

Results

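Rescued corneas of Dstn corn1 mice were compared with wild-type (WT) corneas to describe which transcripts stayed, or became, different from WT after ablation of Srf. The comparison used 6 of the 9 arrays of the series, 3 rescued and 3 WT, chosen by their labels. Every gene with a probe set assigned to exactly 1 gene symbol was included, with the brightest probe set where a gene had several, which gave 22180 genes. Rescued mice carried the corn1 allele of Dstn together with genetic ablation of Srf in the corneal epithelium, and WT mice were labelled wild type. The remaining 3 arrays, from Dstn corn1 mutants without the ablation, are given as mean levels beside the results and entered the shared estimate of the spread. In every group, mutant and WT included, doxycycline was injected intraperitoneally between postnatal days 28 and 58, and corneas were taken at day 58. The strain background was mixed, from FVB, Swiss Black, 129, C57BL6/J and A.BY. The labels name no Cre driver for the ablation and do not say whether WT or mutant mice carried one. Each replicate pooled 10 corneas from 5 mice, so that the spread between replicates is that between pools.

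Destrin, the product of Dstn, severs and depolymerises actin filaments. Serum response factor (SRF) is a transcription factor that binds CArG boxes. Its coactivators are held back by free actin monomers, so that its activity on actin and contractile genes follows the state of the actin pool. The normal cornea is a transparent tissue without blood vessels, covered by a stratified epithelium that expresses keratin 12, and the loss of this state brings vessels, leukocytes and keratins of other epithelia.

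Values are log2 intensities, normalised between arrays by the authors, and a difference is rescued minus WT on this scale, with the moderated standard error (SE) of limma and a Benjamini-Hochberg adjusted p over all 22180 genes. A gene was called at an adjusted p under 0.05. No detection call came with the values, so that a fold whose lower group lay below 6.77, the median of all rows, is printed as a bound, worded at least. Array medians lay between 6.75 and 6.78, and the small number of arrays limits the precision. Rescued replicate 3 often stood nearer to WT than the other rescued pools. Among the 266 genes that were higher in rescued corneas by at least 2-fold, it had the lowest of the 3 rescued values for 218 genes, 82.0%. The mean level of 3 Y-linked genes was 7.16, 9.11 and 8.89 in rescued replicates 1 to 3 and 5.34, 9.77 and 5.15 in the WT ones. Y-linked signal was thus unequal within both groups, and WT replicates 1 and 3 lay below every rescued pool. The sex of the mice is not in the labels.

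Dstn checked the genotype. Its level was 5.61, 5.62 and 5.63 in the rescued arrays and 12.58, 12.55 and 12.59 in the WT arrays. Both sets were tight and far apart, with the mutant mean at 5.63. The difference of −6.96 (SE 0.08, adjusted p = 5.63e-11), at least 124-fold, was the largest in the data in either direction. Srf, measured over the whole cornea, was 9.14, 9.45 and 8.45 in rescued and 9.23, 8.98 and 9.17 in WT arrays, with overlapping groups and a difference of −0.12 (SE 0.21, adjusted p = 0.787), against a mutant mean of 10.68. The sign of this difference was not stable, at −0.33 without rescued replicate 2 and 0.17 without rescued replicate 3. The position of the Srf probes relative to the ablated part is not given, so that this level does not check the ablation. The tissue was corneal by its markers. Krt12, the keratin of corneal epithelium, was 13.92, 13.91 and 13.94 in rescued and 13.96, 13.96 and 13.93 in WT arrays.

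Of the 22180 genes, 3042 were called between rescued and WT corneas (13.7%), 1393 of them higher and 1649 lower in rescued corneas (6.28% and 7.43% of all genes). Most of these differences were small, with 2062 of the calls (67.8%) under 1.5-fold and a median absolute difference of 0.45. At 2-fold or more, 372 genes were called (1.68%), and here 266 were higher and 106 lower. Beyond 4-fold there were 57 higher and 18 lower, and beyond 8-fold 16 higher and 4 lower. Increases thus took a larger share of the larger differences. The values of the 3 rescued and 3 WT arrays did not overlap for 7013 genes (31.6%). Calls were rarer among dim genes, with 2.63% called among the dimmest 25% of genes and 21.0% among the brightest 25%. The median difference over all genes was −0.01.

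**Figure D1:**
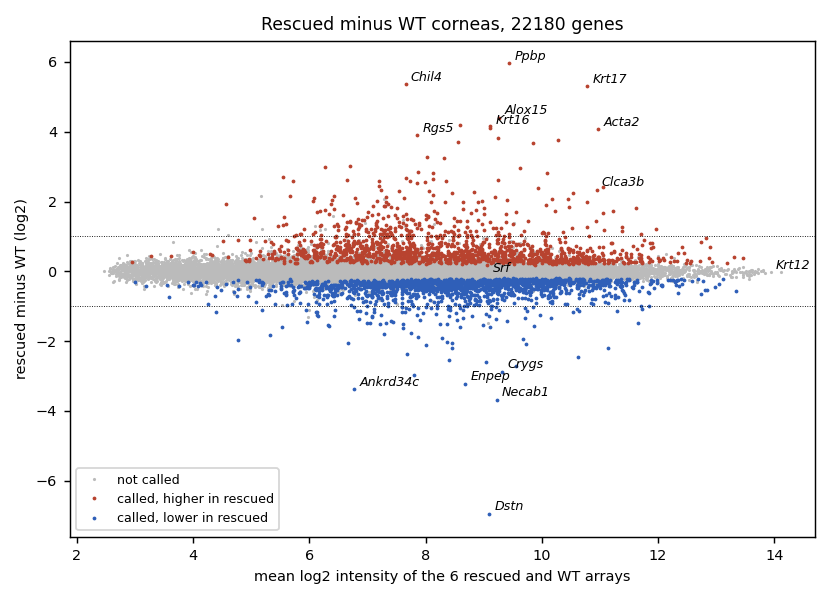
Difference between rescued and WT corneas (log2, y axis) against the mean log2 intensity of the 6 arrays (x axis), 1 point per gene for 22180 genes, with called genes in red (higher) or blue (lower) and dotted lines at 2-fold. Dstn lies lowest at −6.96, and most of the points beyond 2-fold lie above the upper line (266 of 372 called).

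The 12 genes with the largest excess over WT had diverse roles. Ppbp, a platelet and myeloid chemokine, was 12.50, 13.13 and 11.64 in rescued and 6.62, 6.61 and 6.15 in WT corneas. The groups lay far apart, by 5.96 (SE 0.31, adjusted p = 8.57e-06, limma), at least 62.4-fold, with the mutant mean at 13.59. Chil4, a chitinase-like protein of alternatively activated macrophages and epithelium, was 10.84, 12.10 and 8.07 against 4.73, 5.30 and 4.89. Its rescued pools were the most scattered among these genes, with replicate 3 lowest, and the difference was 5.36 (SE 0.80, adjusted p = 0.00236, at least 41.2-fold). Alox15, a lipoxygenase that makes lipid mediators, had the same order of pools, with 12.10, 12.55 and 9.76 in rescued against 7.14, 7.02 and 7.04 in WT arrays (difference 4.41, SE 0.57, adjusted p = 0.00117, 21.2-fold). Chil1, another chitinase-like protein, Serpinb3a, a squamous epithelial protease inhibitor, Nt5e, the ecto-enzyme that makes adenosine, and Adm, the vasoactive peptide adrenomedullin, differed by 3.82, 4.19, 3.77 and 3.71, with adjusted p between 6.01e-06 and 8.45e-05. The rule that chose these 12 genes, and the 12 largest deficits, required groups that did not overlap.

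Krt17, a keratin of wounded and hyperproliferative epidermis, was as steady between pools as it was raised. It read 13.44, 13.60 and 13.26 in rescued and 8.03, 8.39 and 7.98 in WT corneas. The difference of 5.30 (SE 0.12, adjusted p = 2.46e-08, limma) was 39.5-fold, and the mutant mean was 13.82. Its partner in stressed skin, Krt16, read 10.96, 11.50 and 11.05 against 7.13, 7.04 and 6.98 (4.12, SE 0.15, adjusted p = 9.42e-07, 17.4-fold). The mutant mean of Krt16 was 10.93, beside the lowest rescued pool. The related actins, keratins and chitinase-like genes have similar sequences, and cross-hybridisation between them was not tested.

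Among the largest deficits after Dstn, several were tight and others varied between pools. Spink7 differed by −2.98 (SE 0.31), and the crystallins Crygs, Cryba1 and Cryaa, described below, had SEs from 0.40 to 0.49. Necab1, a neuronal calcium-binding protein, was 7.43, 7.36 and 7.35 in rescued and 11.13, 11.06 and 11 in WT corneas. Its groups were apart by many times their spread, at −3.68 (SE 0.06, adjusted p = 1.72e-09, limma), 12.8-fold lower, and the mutant mean was 6.56. Enpep, an aminopeptidase that cleaves angiotensin, was 7.09, 6.91 and 7.23 against 10.37, 10.17 and 10.35 (−3.22, SE 0.09, adjusted p = 1.18e-07, 9.34-fold lower). Ankrd34c, an ankyrin repeat protein, was lower by at least 10.4-fold (−3.38, adjusted p = 5.42e-07) and Snx31, a sorting nexin of urothelium, by 5.84-fold (−2.55, adjusted p = 8.83e-06). Cyp2b19, a keratinocyte epoxygenase, differed by −2.59 but varied within both groups, with SDs of 0.63 and 0.91 (n = 3 each). Keratins took part on this side as well. Krt10, the suprabasal keratin of epidermis, was 9.95, 10.21 and 9.94 against 12.25, 12.31 and 12.13, lower by 4.59-fold (−2.20, SE 0.11, adjusted p = 6.01e-06). Krt20 was lower by 4.56-fold (−2.19, adjusted p = 7.69e-06).

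**Figure D2:**
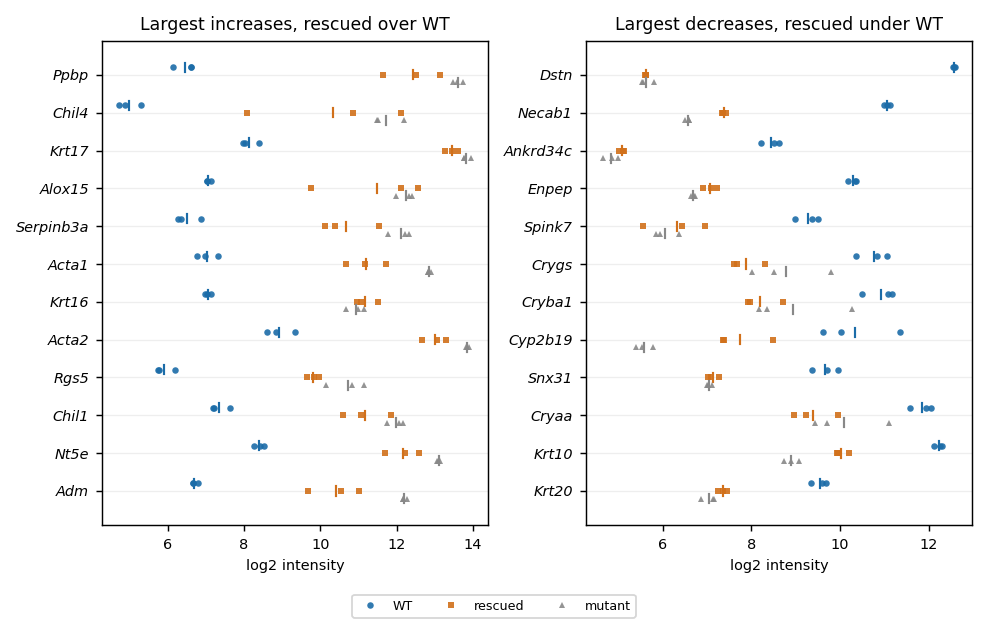
Log2 intensity of each array (x axis) for the 12 genes with the largest increase (left) and the 12 with the largest decrease (right) in rescued against WT corneas, with circles for WT, squares for rescued, triangles for mutant and a tick at each group mean. Rescued and WT values do not overlap for any of these 24 genes, since the rule that chose them required it, and Chil4 and Alox15 have the widest rescued spread.

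The genes of the actin cytoskeleton and contractile apparatus that SRF is known to control remained above WT in part. Of 40 measured members, 23 were higher in rescued than in WT corneas (57.5%, against 6.28% of all genes) and 1 was lower. The median difference was 0.46, against −0.01 over all genes, and the mutant minus WT median of the same genes was 1.62. These comparisons share the WT arrays. Acta1, skeletal muscle actin, was 11.17, 11.72 and 10.66 in rescued and 6.97, 7.32 and 6.77 in WT corneas, and its mutant mean was 12.84. The rescued pools sat nearer to the mutant level than to WT, with a difference of 4.16 (SE 0.23, adjusted p = 1.23e-05, limma, 17.9-fold). Acta2, smooth muscle actin and a marker of myofibroblasts and vessel walls, was 13.05, 13.29 and 12.67 against 8.84, 9.33 and 8.61 (4.07, SE 0.19, adjusted p = 6.01e-06, 16.8-fold). Actg2, enteric smooth muscle actin, differed by 1.97 and Actn1, the crosslinker alpha-actinin, by 1.83, with adjusted p of 0.000374 and 0.00061. In bulk tissue, more cells of a type and more RNA per cell cannot be told apart. The cytoplasmic actin genes Actb and Actg1, whose values were looked at after the rest, had differences of −0.04 (SE 0.08) and 0.02 (SE 0.11), and neither was called.

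CArG boxes stood in the 250 bases upstream of the start of some of these genes, and the windows below show them for genes with and without a residual difference. The motif was searched as CC, then 6 bases of A or T, then GG, a pattern that reads the same on both strands. Of 32851 RefSeq promoters of build GRCm38.p6, 482 held it (1.47%). Boxes that depart from this pattern, or lie outside these 250 bases, were not counted. Among the 35 contractile list genes with a promoter entry, 11 held an exact match. Of these 11, 7 were higher in rescued corneas, against 13 of the 24 without an exact match. Over all genes measured here with an entry, 253 of 16990 held a box (1.49%), and among those called it was 29 of 1052 higher (2.76%) and 13 of 1302 lower ones (0.998%). At 2-fold or more it was 9 of 196 higher (4.59%) and 0 of 76 lower ones. None of these shares was tested, and the counts at 2-fold are small. A match describes letters and not binding. The windows are written 5′ to 3′ on the gene's strand, with the box in capitals. Acta1 (chr8:123894814-123894873, minus strand), Filip1l (chr16:57549155-57549214, plus strand), Vcl (chr14:20929148-20929205, plus strand) and Myl9 (chr2:156775278-156775337, plus strand) were higher in rescued corneas, by 4.16, 1.27, 0.90 and 0.85. Actg1 (chr11:120348551-120348610, minus strand) and Srf itself (chr17:46556190-46556269, minus strand, with 2 boxes in the window) were not called, at 0.02 and −0.12. These 6 were chosen after their values were seen.
Acta1: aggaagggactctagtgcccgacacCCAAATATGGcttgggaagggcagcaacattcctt
Filip1l: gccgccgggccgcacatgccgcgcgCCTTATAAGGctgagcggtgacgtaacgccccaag
Vcl: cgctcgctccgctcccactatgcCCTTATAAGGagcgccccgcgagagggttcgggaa
Myl9: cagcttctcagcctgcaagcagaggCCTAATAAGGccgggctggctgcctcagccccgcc
Actg1: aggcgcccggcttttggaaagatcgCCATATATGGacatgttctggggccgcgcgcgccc
Srf: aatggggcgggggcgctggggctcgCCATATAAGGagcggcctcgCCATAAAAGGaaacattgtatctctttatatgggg

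The immediate early genes, a second class of SRF targets that answer growth factors and stress, gave 10 higher and 1 lower of 19, with a median of 0.30. The share called was 57.9%, against 13.7% of all genes. Nr4a1, a nuclear receptor induced within minutes of a stimulus, was 8.51, 8.78 and 8.17 in rescued and 7.13, 7.16 and 7.11 in WT corneas (1.35, SE 0.14, adjusted p = 0.000412, limma). Atf3, a stress-induced transcription factor, differed by 1.31 (adjusted p = 0.00237), Fosb by 0.76 (adjusted p = 0.00354) and Ccn2, a matricellular growth factor, by 0.93 (adjusted p = 0.0397). The call of Ccn2 was lost with each array left out other than rescued replicate 3 or WT replicate 3, and with the mean of all its probe sets, where it differed by 0.49. The higher count of this list was 5 without rescued replicate 2 or WT replicate 2, and 6 without rescued replicate 1, WT replicate 1 or mutant replicate 1 or 3. Regulators of actin turnover moved both ways, with 9 higher and 3 lower of 31 (38.7% called). The higher count was 4 without rescued replicate 2 and 5 without WT replicate 2. Beside Dstn, the lower ones were Pfn2, a profilin, at −0.76 (adjusted p = 0.000767) and Scin, a gelsolin relative that severs filaments, at −0.69 (adjusted p = 0.00615). Fmnl2, a formin that nucleates filaments, was higher by 0.61 (adjusted p = 0.00642).

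Markers of corneal epithelial differentiation were close to WT at their median, at 0.03 over 25 measured genes, with 4 higher and 3 lower, where the mutant minus WT median was −0.42. The higher count was 2 without rescued replicate 1 or 2 or WT replicate 3, with the replicate block and with the Y-linked covariate. Krt12 differed by −0.03 (SE 0.05, adjusted p = 0.808) and Aldh3a1, the abundant corneal crystallin enzyme, by −0.04 (SE 0.05, adjusted p = 0.742). Pax6, the eye master regulator, was 12.10, 12.11 and 12.18 in rescued and 12.31, 12.45 and 12.34 in WT corneas. These groups did not overlap, and the difference of −0.24 (SE 0.08) missed the threshold at an adjusted p of 0.0935, with the mutant mean at 11.69. It passed when dim genes were left out at the median, with an intensity trend and with the Y-linked covariate. Aldh1a1, a second corneal aldehyde dehydrogenase that makes retinoic acid, stayed well below WT. It read 11.03, 10.79 and 10.95 against 12.36, 12.43 and 12.40 (−1.47, SE 0.08, adjusted p = 8.59e-06, 2.78-fold lower). The desmosomal cadherin Dsg1a was lower (−0.81, adjusted p = 0.00652), and the tight junction gene Cldn4 was higher (0.82, adjusted p = 0.00186).

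Several keratins of other epithelia were also higher than in WT corneas. Of 16 genes of simple and mucosal epithelium, 6 were higher and 1, Krt20, was lower (43.8% called, against 13.7% of all genes). Krt8, the type II keratin of simple epithelium, was 11.12, 11.53 and 10.62 in rescued and 8.27, 7.95 and 8.20 in WT corneas, 7.74-fold higher (2.95, SE 0.21, adjusted p = 5.01e-05, limma). Its partner Krt18 was higher by 6.16-fold (2.62, SE 0.19, adjusted p = 5.78e-05), and Krt4, a mucosal and conjunctival keratin, by 5.37-fold (2.42, SE 0.21, adjusted p = 0.000131). Replicate 3 was the lowest of the rescued pools for all 3 of these keratins, and still above every WT array. Of 4 goblet cell markers, Agr2, a secretory pathway protein, was higher, at 8.37, 8.39 and 7.19 against 6.90, 6.52 and 6.54 (1.33, SE 0.36, adjusted p = 0.04), a call lost with any rescued or WT array left out other than rescued replicate 3, and without mutant replicate 3. The mucin Muc5ac lay below 6.77 in both groups, and Tff1 and Spdef, at 0.16 and −0.02, were not called. Of 29 epidermal and stress genes, 8 were higher and 3 lower (37.9% called). Sprr1a, a cornified envelope protein, was at 11.08, 12.29 and 11.12 against 8.70, 8.73 and 8.58 (2.83, adjusted p = 0.000464). The lower count of that list was 1 without rescued replicate 1 or WT replicate 1. Basal and limbal genes gave 5 higher and 1 lower of 16 (37.5% called), with 3 to 5 higher when any 1 array was left out. Gpha2, a glycoprotein hormone subunit known from limbal stem cells, read 11.22, 10.95 and 11.23 against 10.06, 9.91 and 9.70 (1.24, SE 0.11, adjusted p = 0.000156), and Krt14, the basal layer keratin, differed by 0.96 (SE 0.07, adjusted p = 5.43e-05). Cell cycle genes gave 10 higher and 0 lower of 38 (26.3% called), with a median of 0.37. Top2a, the mitotic topoisomerase, was at 0.65 (adjusted p = 0.032), a call lost without rescued replicate 1 or 2 or WT replicate 2 or 3. That count was fragile, since it was 1 without rescued replicate 1 or 2, 2 without WT replicate 2 or 3, 5 or 6 without mutant replicate 3 or 1, and 15 and 23 without rescued replicate 3 and WT replicate 1.

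Blood vessel markers stayed above WT. Of 24 blood endothelial genes, 17 were higher and 1 lower (75.0% called, against 13.7% of all genes), with a median of 0.61. Emcn, the endothelial sialomucin endomucin, was 7.47, 8.14 and 7.71 in rescued and 4.69, 4.72 and 4.91 in WT corneas, at least 7.99-fold higher (3.00, SE 0.18, adjusted p = 1.63e-05, limma). Cdh5, the endothelial cadherin, was 8.84, 9.26 and 9.0 against 6.61, 6.32 and 6.37, at least 6.05-fold higher (2.60, SE 0.16, adjusted p = 1.82e-05). Both genes were below the median of all rows in each WT array and above it in each rescued array. Pecam1, an endothelial and leukocyte adhesion molecule, differed by 1.47 (adjusted p = 0.00186) and Ptprb, an endothelial phosphatase, by 1.48 (adjusted p = 0.000228). The member that was lower was Kdr, the main VEGF receptor, at 8.44, 8.43 and 8.54 against 9.15, 9.12 and 8.91 (−0.59, SE 0.15, adjusted p = 0.0277), a call lost without rescued replicate 1 or 2 or WT replicate 1 or 2. The higher count was 9 without rescued replicate 2 and 11 without WT replicate 1 or 2. Rgs5, which marks pericytes, the contractile cells around capillaries, was 9.65, 9.95 and 9.82 against 6.20, 5.75 and 5.77, at least 14.9-fold higher (3.90, SE 0.23, adjusted p = 1.57e-05), while the pericyte receptor Pdgfrb differed by −0.17 (SE 0.12, adjusted p = 0.434). Of the other pericyte markers, Cspg4 was higher by 0.52 (adjusted p = 0.00436) and Notch3 was lower, at −0.30 (adjusted p = 0.043). Kcnj8, with means below 6.77 in both groups, was not called. The call of Notch3 was lost with any array left out other than rescued replicate 2 or WT replicate 3. Pericyte and smooth muscle genes gave 7 higher and 1 lower of 12 (66.7% called). Of 7 lymphatic genes, 3 were higher (42.9% called), among them Lyve1, a hyaluronan receptor also found on macrophages, by 1.08 (adjusted p = 0.00322). Prox1, the lymphatic transcription factor, had means below 6.77 in rescued and WT corneas. Vegfa, the main vessel growth factor, was 9.12, 9.12 and 8.94 against 8.49, 8.27 and 8.19 (0.74, SE 0.12, adjusted p = 0.00419).

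Leukocyte genes formed the other broad excess. Monocyte and macrophage markers gave 17 higher and 0 lower of 25 (68.0% called, against 13.7% of all genes), with a median of 0.81. The mean level of this list was 8.15, 8.20 and 7.77 in rescued and 7.05, 7.14 and 7.0 in WT corneas, with mutant arrays between 7.96 and 8.55. Every rescued pool lay above every WT pool, and replicate 3 was lowest. Ly6c2, of inflammatory monocytes, was 9.96, 9.37 and 9.01 against 7.07, 7.14 and 6.22 (2.64, SE 0.28, adjusted p = 0.000361, limma, 6.22-fold). Lyz2, lysozyme of myeloid cells, read 9.53, 9.40 and 9.69 against 7.53, 7.82 and 7.87 (1.80, SE 0.12, adjusted p = 3.44e-05), and was not lowest in replicate 3. The growth factor receptor Csf1r differed by 1.07 (adjusted p = 0.00379) and Adgre1, the macrophage antigen F4/80, by 1.10 (adjusted p = 0.0101), while Cd68 and Itgam, at 0.29 and 0.26, were not called. Genes of dendritic cells and of MHC class II gave 8 higher and 0 lower of 15 (53.3% called). The class II chains H2-Ab1 and H2-Aa, which present antigen to helper T cells, differed by 2.60 and 2.56 (adjusted p of 0.000536 and 0.000307). H2-Ab1 read 10.19, 9.74 and 9.01 against 7.01, 7.41 and 6.73, and the higher count of this list was 3 without rescued replicate 2 and 4 or 5 without rescued replicate 1 or any WT replicate.

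Neutrophil markers gave 4 higher and 0 lower of 19 (21.1% called, against 13.7% of all genes). The higher ones included Ltf and Lcn2, secreted iron-handling proteins that epithelium and glands also make, at 1.76 and 1.65, and the receptors Il1r2 and Csf3r, at 1.04 and 0.54. The call of Il1r2 was lost without rescued replicate 1 or 2 or WT replicate 1 or 2. Ly6g, Mpo, Elane, S100a8 and S100a9, which define neutrophils, had rescued means below 6.77, and none was called. Of 21 lymphocyte and mast cell markers, 5 were higher and 1 was lower (28.6% called, and 3 to 8 higher with any 1 array left out). Among the higher ones were the mast cell protease Cpa3 (1.96, adjusted p = 0.009) and the T cell receptor component Cd3g (1.69, adjusted p = 0.0082). Chemokines and cytokines gave 14 higher and 0 lower of 37 (37.8% called), with a median of 0.56, and 9 higher without rescued replicate 2. Ccl17, a chemokine for T cells, was higher by at least 3.93-fold (1.97, SE 0.17, adjusted p = 0.000113). Il1b, the inflammasome cytokine, read 8.15, 7.24 and 6.55 against 5.49, 5.50 and 5.60 (1.78, SE 0.40, adjusted p = 0.0166). The call of Il1b was lost without rescued replicate 2 or WT replicate 1 or 2. Genes of matrix remodelling gave 12 higher and 0 lower of 23 (52.2% called). Mmp3, the protease stromelysin, was 9.56, 10.27 and 9.11 against 6.18, 6.44 and 6.54, at least 9.60-fold higher (3.26, SE 0.30, adjusted p = 0.000213). Tnc, the wound matrix protein tenascin, was 9.63, 9.28 and 8.09 against 6.27, 6.56 and 6.17 (2.67, SE 0.32, adjusted p = 0.000776). Without WT replicate 2 that list had 7 higher. Markers of keratocytes, the resident stromal cells, gave 3 higher and 2 lower of 26 (19.2% called, near the 13.7% of all genes), with the proteoglycan Aspn and the collagen Col3a1 higher by 2.16 and 1.11. The lower count there was 1 with any array left out other than rescued replicate 1 or WT replicate 3, and the higher count ran from 2 to 4. Of the 5 markers used to define keratocytes, 0 were higher and 1, Ptgds, was lower. Kera and Lum, at −0.16 and −0.01, and Dcn and Ogn were not called.

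**Figure D3:**
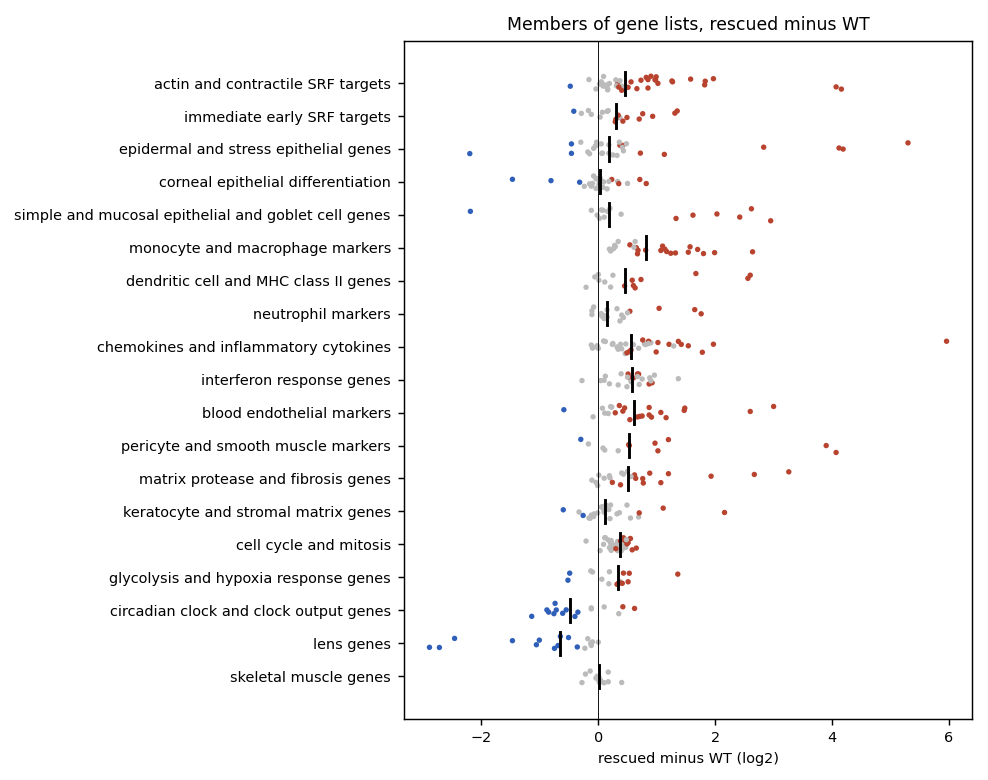
Rescued minus WT difference (log2, x axis) of each measured member of 19 gene lists (rows), with called members in red (higher) or blue (lower), others in grey, and a black bar at the median of each list. The macrophage list has the highest median (0.81) and the lens list the lowest (−0.65), with skeletal muscle genes at 0.01.

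Interferon response genes differed between the rescued pools. Of 24 measured members, 7 were higher in rescued corneas (29.2%, against 6.28% of all genes) and 0 lower. Their median was 0.58, while the mutant minus WT median was 0.00. The list's mean level was 9.26, 9.21 and 8.44 in rescued replicates 1 to 3 and 8.31, 8.65 and 8.28 in WT ones. Rescued replicates 1 and 2 lay above every WT and mutant array, and replicate 3 lay among them. Oas2, an antiviral oligoadenylate synthetase, was 10.69, 10.70 and 9.22 in rescued and 8.40, 9.68 and 8.40 in WT corneas. Its groups overlapped, and the difference of 1.37 (SE 0.44) had an adjusted p of 0.073, and passed without rescued replicate 3 or WT replicate 2, with an intensity trend and when dim genes were left out at the median. Igtp, an interferon-induced GTPase, was 10.06, 8.84 and 7.64 against 7.84, 8.23 and 7.77, at 0.90 (SE 0.48, adjusted p = 0.276), and passed without rescued replicate 3. Oas3 was called, at 0.92 (SE 0.25, adjusted p = 0.0396), a call lost without rescued replicate 1 or 2, WT replicate 1 or 3 or mutant replicate 2. The list's count was 17 without rescued replicate 3, and 3 without rescued replicate 1 or 2, without WT replicate 1 or 3 or with the Y-linked level as a covariate.

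Fewer groups lay below WT. Of 17 lens genes, 11 were lower and 0 higher (64.7% called, against 13.7% of all genes), with a median of −0.65. Crygs, a gamma crystallin, was 8.32, 7.67 and 7.62 in rescued and 10.83, 10.37 and 11.07 in WT corneas, with a mutant mean of 8.77. The difference was −2.89 (SE 0.40, adjusted p = 0.00171, limma, 7.4-fold lower). The crystallins Cryba1 and Cryaa were lower by 6.59-fold and 5.52-fold (adjusted p of 0.00593 and 0.0038). Of the 8 lens markers used to define the tissue, 4 were lower, all of them crystallins. Mip, the lens aquaporin, was 7.42, 7.35 and 7.52 against 7.35, 7.45 and 7.49 and Bfsp1, a lens filament protein, differed by −0.23 (SE 0.12, adjusted p = 0.25), while Bfsp2 and Lim2 had means below 6.77 in both groups. Of 12 retina and pigment cell genes, 1 was lower and 0 higher, a share (8.33%) below that of all genes. It was the rod transducin Gnat1 at −0.91 (adjusted p = 0.0361), a call that 10 of 20 alternatives ended. How much lens tissue the pools held is not given, and its part in these values was not tested.

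Clock genes were lower with little spread. Of 16 circadian clock and output genes, 10 were lower and 2 higher (75.0% called), with a median of −0.48. The lower count was 10 with any 1 array left out. Nr1d1, the repressor REV-ERB alpha, was 10.61, 10.72 and 10.83 in rescued and 11.82, 11.96 and 11.80 in WT corneas, 2.21-fold lower (−1.14, SE 0.13, adjusted p = 0.000598, limma). Dbp, a clock output factor, was 10.59, 10.50 and 10.88 against 11.50, 11.70 and 11.39 (−0.88, adjusted p = 0.00868). Ciart and Bhlhe41, repressors of the same loop, differed by −0.85 and −0.76. The mutant means of Nr1d1 and Dbp were 10.56 and 10.29, close to the rescued pools. The time of day of collection is not in the labels. Of 36 Wnt, Notch and BMP genes, 8 were lower and 2 higher (27.8% called, against 13.7% of all genes). Among the lower ones were the secreted modulator Dkk3 at −0.92 (adjusted p = 4.17e-05) and the Notch ligand Dll1 at −0.49 (adjusted p = 0.0045). With the mean of all probe sets of the gene, Dll1 was at −0.23 and not called. The lower count of that list was 4 without WT replicate 1, 5 without mutant replicate 3, rescued replicate 2 or WT replicate 2, and 6 or 7 without any other array. The glycine cleavage genes Gldc and Amt were lower by 0.81 and 0.87 on the log2 scale (adjusted p of 0.0121 and 0.000234).

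Several epithelial transport and metabolic genes stood apart from WT in both directions. The phosphate carrier Slc34a2 was 11.03, 10.93 and 11.07 in rescued and 11.87, 11.77 and 11.83 in WT corneas (−0.82, SE 0.08, adjusted p = 0.000288, limma), with a mutant mean of 7.52. The rescued pools were thus close to WT and still below it. The amino acid carrier Slc6a14 was higher by 0.70 (adjusted p = 0.000448), and Clca2, a calcium-activated chloride channel regulator, by 1.15 (SE 0.07, adjusted p = 2.61e-05), with rescued and mutant means of 10.27 and 10.26. Glycolysis and hypoxia genes gave 8 higher and 2 lower of 16 (62.5% called, against 13.7% of all genes). They were led by the phosphofructokinase Pfkp at 1.36 (SE 0.13, adjusted p = 0.000222). Pfkfb3 was lower, at −0.52 (adjusted p = 0.0157), a call lost without rescued replicate 1 or 2 or WT replicate 2. The higher count of this list was 6 without rescued replicate 1 or 2 and 5 with the Y-linked covariate. Among EGF family ligands, Epgn, epigen, read 11.42, 11.76 and 11.01 against 10.09, 9.98 and 10.36 (1.26, SE 0.17, adjusted p = 0.00135), and Tgfa and Nrg1 were higher by 0.49 and 0.44. Ereg, at 0.45, lost its call without rescued replicate 1 or 2 or WT replicate 2. The list held 4 higher and 1 lower of 16 (31.2% called). Pmaip1, the p53 target NOXA, was 3.09-fold higher (1.63, SE 0.17, adjusted p = 0.000342). Its list, p53 targets and cyclin-dependent kinase inhibitors, gave 3 higher and 2 lower of 14 (35.7% called), with a median of 0.02. Sesn1, of the same list, was lower, at −0.43 (adjusted p = 0.00391). The lower count of the list ran from 1 to 2 with any 1 array left out.

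MicroRNA genes were measured through 426 microRNA gene symbols, and the ones shown were chosen after their values were seen. Of these, 22 were lower (5.16%, against 7.43% of all genes) and 4 higher, with a median of −0.05, so that microRNA genes as a class were not lower more often than other genes (6.1% called in either direction, against 13.7%). Most were dim, and among the 110 whose WT mean reached 6.77, 11 were lower and 3 higher. These probe sets report RNA from the gene and not the mature microRNA. Mature sequences from RefSeq (GRCm38.p6) of corneal and epithelial microRNAs among those that were lower are shown, with the seed, bases 2 to 8, in capitals, since the seed sets which messages a microRNA can pair with. They come from Mir184 (3p arm, chr9:89802263-89802284, minus strand), Mir204 (5p arm, chr19:22750610-22750631, plus strand), Mir205 (5p arm, chr1:193507503-193507524, minus strand), Mir200b (3p arm, chr4:156055685-156055706, minus strand) and the genes Mir181b-1 (5p arm, chr1:137966650-137966673, plus strand) and Mir181b-2 (5p arm, chr2:38853845-38853868, plus strand), which give the same 5p sequence. The 5 mature sequences have 5 different seeds.
mmu-miR-184-3p: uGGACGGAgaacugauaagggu
mmu-miR-204-5p: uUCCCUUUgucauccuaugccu
mmu-miR-205-5p: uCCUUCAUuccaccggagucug
mmu-miR-200b-3p: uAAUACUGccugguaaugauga
mmu-miR-181b-5p: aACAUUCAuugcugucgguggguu

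Mir184, the gene of an abundant corneal and lens microRNA, was 8.78, 8.31 and 8.93 in rescued and 10.81, 10.74 and 10.74 in WT corneas. The groups did not overlap, and the difference was −2.09 (SE 0.16, adjusted p = 8.77e-05, limma, 4.24-fold lower), with a mutant mean of 7.39. Mir204 was 7.32, 7.85 and 7.67 against 9.02, 9.29 and 9.06, 2.85-fold lower (−1.51, SE 0.28, adjusted p = 0.0069), with a mutant mean of 5.41. For both genes the rescued pools stood between mutant and WT. Mir205, an epithelial microRNA gene, was 8.46, 8.31 and 8.31 against 9.26, 9.11 and 8.97 (−0.75, SE 0.09, adjusted p = 0.000667), with a mutant mean of 8.56. Mir181b-1 and Mir181b-2 were lower by 1.02 and 0.56 on the log2 scale, and Mir200b, of the family that guards epithelial identity, by 0.43 (adjusted p = 0.00295).

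**Figure D4:**
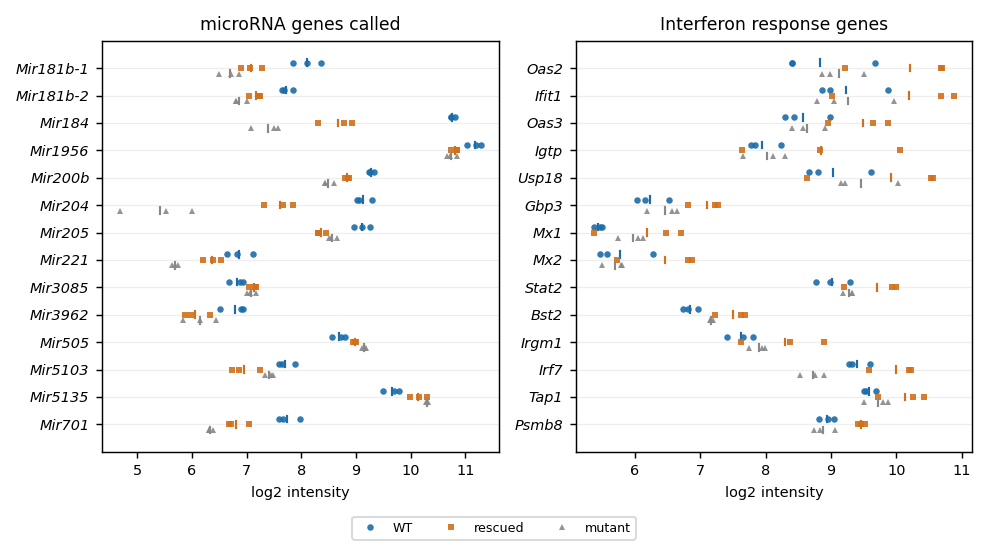
Log2 intensity of each array (x axis) for the 14 called microRNA genes with a WT mean of at least 6.77 (left) and for the 14 interferon response genes with the largest differences (right), with circles for WT, squares for rescued, triangles for mutant and a tick at each group mean. Mir184 and Mir204 lie between mutant and WT levels in the rescued pools, and for Oas2 and Ifit1 rescued replicate 3 lies among the WT arrays.

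Among 2787 called genes with named symbols whose rescued and WT values did not overlap, 1136 lay near the mutant level, defined as an unadjusted p over 0.05 and a difference of at most 0.5 from the mutant mean. This does not show that they equalled it. The median absolute difference of all called genes from WT was 0.45, so that a gene could lie within 0.5 of both means. How many of all genes lie this near to the mutant mean was not counted. Of the 1136 genes, 408 were higher than WT and 728 lower. Beside Krt16 and Sprr1a, the higher ones were led by Alox12e, an epidermal lipoxygenase, at 10.26, 11.20 and 8.37 in rescued against 6.79, 6.44 and 6.83 in WT corneas and a mutant mean of 10.14, and by Casp1, the inflammasome protease, at 8.86, 8.34 and 7.39 against 5.17, 5.0 and 5.40. Casp1 differed from WT by 3.01 (SE 0.30, adjusted p = 0.000288, limma), at least 8.03-fold, with a mutant mean of 8.67. Beside Dstn, Ankrd34c and Snx31, the lower ones included Spink7, a protease inhibitor of squamous epithelium, Piezo2, the mechanically gated channel of touch neurons, and Fat4, a giant cadherin. Piezo2 was 7.38, 7.24 and 7.64 against 9.42, 9.50 and 9.50 (−2.05, SE 0.10, adjusted p = 6.01e-06), with a mutant mean of 7.25. Fat4 was 7.11, 7.39 and 7.53 against 9.64, 9.47 and 9.04 (−2.04, SE 0.19, adjusted p = 0.000222), with a mutant mean of 7.24. With the mean of all its probe sets Fat4 was at −1.18, still called.

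A smaller set of 134 genes lay outside both other groups, called against WT and against mutant with the same sign, 87 higher and 47 lower. The rescued arrays enter both of these comparisons. Clca3b, of the calcium-activated chloride channel regulator family, was 12.16, 12.03 and 12.12 in rescued, 9.42, 9.75 and 10.16 in WT and 11.05 on average in mutant corneas. It was 5.02-fold above WT (2.33, SE 0.19, adjusted p = 9.75e-05, limma). Clca3a2, its close paralog, differed by 1.21 (adjusted p = 0.00431), and the signal cannot be assigned to either paralog with certainty. Slc5a1, the sodium-glucose cotransporter, was 11.54, 11.63 and 11.64 in rescued and 10.60, 10.91 and 10.88 in WT corneas, with a mutant mean of 10.57 (0.80, SE 0.15, adjusted p = 0.00657). Adamtsl4, a fibrillin-binding protein of the eye, was higher by 0.82, Ccdc141, a coiled-coil protein, by 0.81 and Asb11, a ubiquitin ligase adaptor, by 0.68, all with adjusted p under that of Slc5a1. Dsg1b and Wincr1, at 0.71 and 0.76, were called but lost the call when some single arrays were left out.

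Below both groups, Cdr2, a cytoplasmic antigen of neurons, was 8.48, 8.53 and 8.37 in rescued and 9.33, 9.44 and 9.21 in WT corneas, with a mutant mean of 9.17. Cdr2 differed from WT by −0.86 (SE 0.10, adjusted p = 0.000517, limma). Bmp7, a bone morphogenetic protein of eye development, was 9.02, 9.02 and 8.87 against 9.54, 9.49 and 9.45, with a mutant mean of 9.57 (−0.52, SE 0.07, adjusted p = 0.00123). Ndrg1, a hypoxia-responsive differentiation gene, Pygb, glycogen phosphorylase, and Stfa3, a stefin, were lower by 0.49, 0.46 and 0.49 on the log2 scale. Emb, Akr1c18 and Cpn1, at −0.69, −0.54 and −0.51, were called but lost the call without rescued replicate 1, and Akr1c18 also without rescued replicate 2 or WT replicate 1 or 2. With the mean of all its probe sets Emb was at −0.28 and not called. All of these differences but that of Clca3b and Clca3a2 were under 2-fold.

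**Figure D5:**
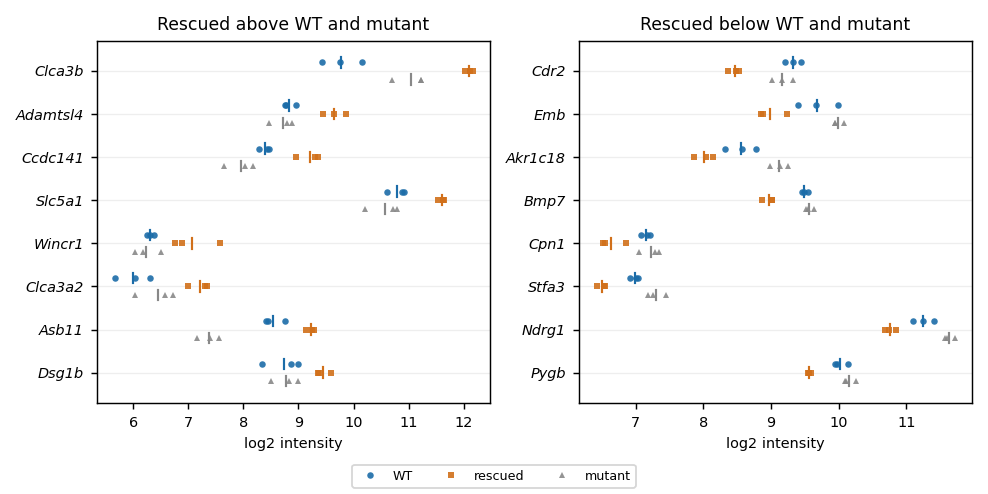
Log2 intensity of each array (x axis) for the 8 genes highest above (left) and the 8 lowest below (right) both other groups in rescued corneas, with circles for WT, squares for rescued, triangles for mutant and a tick at each group mean. Clca3b has the widest separation, with rescued arrays from 12.03 to 12.16.

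Genes beside the altered loci were looked at separately. Of the 50 genes nearest to Dstn on chromosome 2, 25 on each side in gene order, 1 was higher and 4 were lower (10.0%), and around Srf on chromosome 17 there were 2 higher and 4 lower of 50 (12%), with none at 2-fold. Both shares were below the 13.7% called among all genes. The neighbours that were called included Snap25, a synaptic fusion protein, at −0.67 near Dstn and Vegfa, at 0.74, near Srf.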

How the data were processed

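Total RNA from pooled corneas was amplified and biotin-labelled for a single-colour array, per the labels. The deposited table holds log2 intensities, already normalised between arrays by the authors. Their method is not named in the labels, and base 2 was taken from the range of the values (2.14 to 14.3). Of 41345 rows, 23521 carried exactly 1 gene symbol in the platform annotation, 1814 carried several and 16010 were not named. Where several rows shared a symbol (1082 genes) the brightest was used, which left 22180 genes (22139 found in a reference gene table), without an intensity filter. All 9 arrays were fitted with limma 3.58.1 (R 4.3.3; lmFit, contrasts, eBayes), and p-values were two-sided and Benjamini-Hochberg adjusted over all genes. On simulated data for rescued minus WT (22180 genes, 50 changed at each size), 50%, 96%, 98% and 100% of log2 differences of 0.5, 1, 2 and 3 were recovered, with 9 false calls. 

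The comparison, the 41 gene lists and the rules were chosen with earlier results of these data known. Named were Dstn and Srf, the 12 largest differences each way, the 6 largest each way near the mutant level, the 8 each way outside both groups, up to 4 members of each list by size of difference, and cell type markers, without microRNA, small nucleolar RNA, receptor segment, model or clone symbols. Genes other than the markers and list members had to be called with groups that did not overlap. Actb, Actg1, Filip1l, Vcl, Myl9 and the microRNA genes were picked with their values in view. The alternatives were other normalisations, filters and rows, the 6 arrays alone, the replicate number as a block, an intensity trend, array weights, a Y-linked covariate, a threshold of 0.01 and each array left out. Deviations of same-numbered arrays from their group means had correlations of −0.016 to 0.063, against −0.095 to 0.08 for other pairs. With 3 arrays per group this check cannot exclude pairing, and the numbers are not stated to pair pools. Motifs and sequences came from RefSeq tables of GRCm38.p6. Figures used matplotlib 3.10.9 and Python 3.11.15. Scanner files were not used here.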

Additional observations from a re-analysis of the deposited data

How the results depend on the processing

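None of the 172 called named genes changed direction under any of the 20 alternatives, and 127 of them were called in each alternative that tested them. The count of 3042 called genes (1393 higher, 1649 lower) was 1374 (649 higher, 725 lower) at an adjusted p under 0.01. With 1 array left out it ran from 1812 to 2975, the higher count from 819 to 1429, the lower count from 993 to 1590 and the count at 2-fold from 312 to 467. Rescued replicate 2 gave the lowest of these (1812, 819 and 993), and the lower count was 1072 without rescued replicate 1 and 1033 without WT replicate 1. With a replicate block, although the numbers are not stated to pair the arrays, 2656 genes were called (1227 higher), 370 of them at 2-fold. The Y-linked covariate gave 2185 (1053 higher, 360 at 2-fold). With it 20 of the 172 called named genes lost the call, among them Ccn2, Kdr, Tek, Oas3, Agr2 and Akr1c18. Under quantile normalisation 51.8% of the calls were higher, against 45.8%.

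The 3 pools per group limit the detection of small differences. In simulated data 50% of differences of 0.5 were recovered. That simulation changed far fewer genes than were called here and gave all groups the same spread. Its share need not hold for these data. Dim genes carry bounds in place of folds. The causes of the changed counts were not tested. Replicate pools came from separate mice, but the labels do not say whether they were processed together.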
